A study of Homo sapiens with 12 samples.

Results

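All-trans retinoic acid (ATRA) given alone was compared with no treatment in MOLM-13, a human acute myeloid leukemia (AML) line of monocytic type that carries the MLL-AF9 fusion. Libraries were chosen by their labels, and 6 of the 12 RNA-seq libraries of the series entered the comparison, 3 untreated and 3 with 1 µM ATRA. The comparison was described over 10641 protein-coding genes that passed a filter on low counts, out of 46639 gene symbols. Cells of both groups are described as grown in medium with serum and human GM-CSF, a growth factor of the myeloid lineage. The methods of the study name the serum but no GM-CSF. The series design calls the triplicates technical, so p-values measure the spread between technical replicates of 1 experiment. Whether each library came from its own culture is not stated. The labels give 96 h for untreated cells and 72 h for cells with ATRA, whereas the series design names 72 h for the harvest and the methods of the study place ATRA on the third day only. ATRA was dissolved in DMSO. The methods give controls the vehicle whereas the labels call them untreated, so ATRA, its solvent and the labelled time cannot be told apart. The other 6 libraries received decitabine (DAC), a DNA methylation inhibitor, at 100 nM without or with ATRA for the labelled 72 h. They helped to estimate the spread and are used only where the ATRA effect without and with DAC is compared.

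ATRA is the active form of vitamin A. It binds retinoic acid receptors, which sit with a retinoid X receptor partner on repeated half-sites in DNA, hold corepressors when empty and exchange them for coactivators when ligand is bound. Target genes include the enzymes that degrade ATRA, so that the response limits itself. In myeloid cells the ligand favours maturation, and in acute promyelocytic leukemia it is an established therapy that drives blasts into granulocyte-like cells.

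Values are normalised read-counts, that is read-counts per gene divided by a size factor of the library. Depth was 8951104 to 11944630 reads in untreated libraries and 8363702 to 10685348 with ATRA, and the non-coding RN7SL1 took 6.22% to 11.2% and 7.84% to 12.8% of them. Counting was per transcript and appears to leave out reads that fit several transcripts, so levels can be compared between libraries but not between genes. Principal component analysis of the 6 libraries placed 79.3% of the variance on an axis that parted the groups and 6.996% on an axis on which ATRA library 1 (29.8) lay apart from ATRA libraries 2 and 3 (-8.85 and -17.8). Without that library, 1166 genes were called higher and 1473 lower. The myeloid markers CD33, CSF1R, SPI1, MPO and LYZ were present in every library, while CD68 was listed at 0. Among markers of other lineages, HBA1, HBB and ALAS2 (erythroid), CD3E and CD2 (T cell), MS4A1 (B cell), KLRD1 (natural killer cell) and PF4 (platelet) were at 0 in all 6 libraries. Others held reads, with means of 16.5 counts untreated and 5.66 with ATRA for CD3D (T cell). The means were 23.9 and 8.45 for ITGA2B (megakaryocyte), and 7.10 and 1.75 for NCAM1 (natural killer cell). Of the 16 markers of these lineages, CD79A (B cell) rose from 3.07 to 15.6 counts and GP9 (megakaryocyte) fell from 16.8 to 2.24. The GP9 call was lost without untreated replicate 1 or 2, without ATRA replicate 2 or 3 and with a pseudocount of 0.1. Its adjusted p ranged from 0.000514 to 0.0389 over the alternatives (limma, DESeq2 or edgeR). The part of these markers in the results was not tested. The median SD of a gene between replicates was 0.17 in untreated and 0.21 with ATRA on the log2 scale.

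ATRA upregulated 1284 genes and downregulated 1488 (limma, adjusted p under 0.01). These are 12.1% and 14% of the genes tested, and the count of each gene group is read against these shares. Of them, 755 upregulated (7.1%) and 806 downregulated genes (7.57%) changed over 2-fold. The largest changes were mostly rises. A change of over 32-fold on the log2(normalised count + 1) scale was seen in 46 upregulated and 13 downregulated genes, and a change of 8 to 32-fold in 130 and 90. Small changes were more often falls, with 682 downregulated against 529 upregulated genes at up to 2-fold. The libraries of both groups did not overlap in 5397 genes, 50.7% of those tested. In 60 upregulated genes the untreated libraries, and in 64 downregulated genes the ATRA libraries, held 3 reads or fewer each. For these genes a lower bound of the fold is given, with the empty group set to 3 reads in each library. The median log2 fold change over all genes was -0.04, between -0.09 and 0.00 under other scalings.

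**Figure D1:**
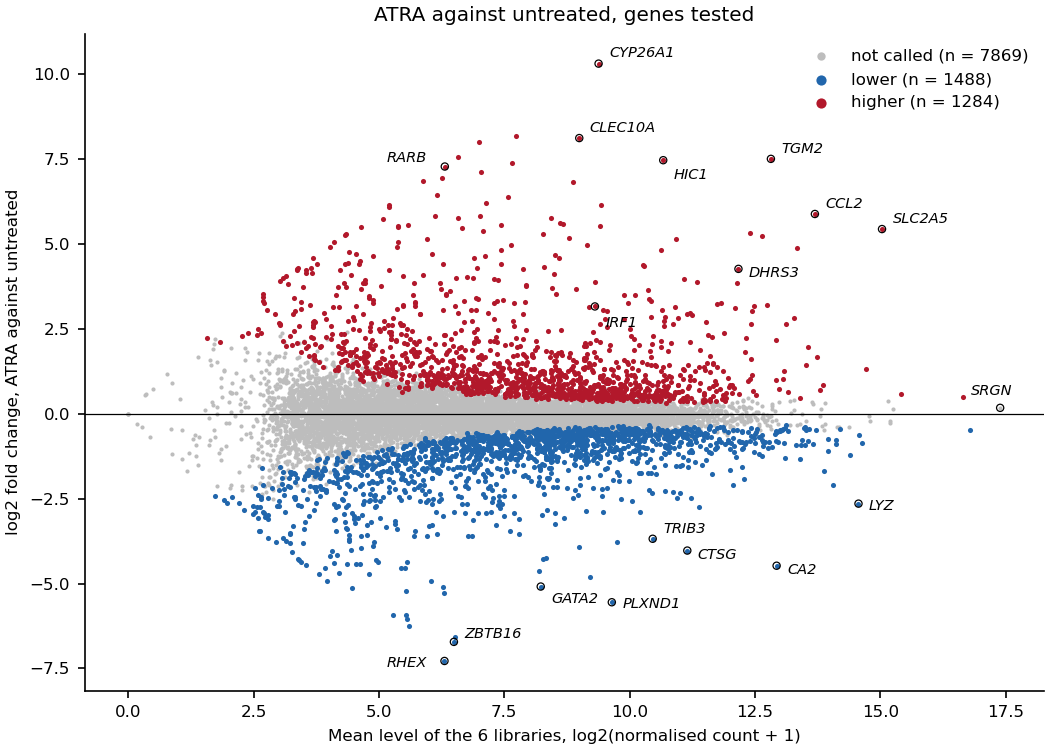
Log2 fold change of ATRA against untreated (vertical) by the mean level of the 6 libraries on the log2(normalised count + 1) scale (horizontal), 1 point per protein-coding gene tested. The 1284 upregulated genes (red) reach a log2 fold change of 10.32 for CYP26A1, the 1488 downregulated genes (blue) reach -7.28 for RHEX, and SRGN, which has the highest mean level, was not called.

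Genes of the retinoic acid response were mostly upregulated, and CYP26A1 had the largest log2 fold change of all genes tested. Of 27 such genes, 14 passed the filter on low counts, 9 stayed below it and 4 were listed at 0. Of the 14, 10 were upregulated and 3 downregulated, with a median log2 fold change of 3.73. CYP26A1, CYP26C1 and PLAAT4 stayed under 10 counts in each library without ATRA and passed the filter through libraries with ATRA, so these counts favour rises. CYP26A1 (chr10:93073475-93077885, plus strand, GRCh38), the cytochrome that degrades ATRA, had 0 counts in each untreated library and 829, 1604 and 1559 with ATRA. The groups lay far apart, and ATRA library 1 held the lowest of the 3 values. The rise was at least 546-fold (log2 fold change 10.32, SE 0.29, limma adjusted p 1.78e-15). RARB (chr3:24687887-25597932, plus strand), which encodes retinoic acid receptor beta, was likewise at 0 counts in the untreated libraries and had 123, 178 and 171 counts with ATRA, at least 64.5-fold more (limma adjusted p 1.02e-10). CYP26C1, a sister enzyme of CYP26A1, had 2.33, 0 and 0 counts untreated and 17.0, 58.0 and 56.0 with ATRA, at least 17.9-fold more. CYP26B1, the remaining member of this enzyme family, stayed below the filter with 9.62 ± 1.85 counts (SD, n = 3) with ATRA and 0 without.

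Further upregulated members serve several roles. TGM2, a tissue transglutaminase that crosslinks proteins, had 84.0, 77.9 and 70.9 counts in the untreated libraries and 15975, 13182 and 13910 with ATRA, a 185-fold rise. HIC1, a zinc finger transcriptional repressor, went from 17.5 ± 3.83 to 3238 ± 170 counts (SD, n = 3), also 185-fold. DHRS3 (chr1), which reduces retinal to retinol and so lowers the supply of new ATRA, had 447, 510 and 404 counts untreated and 7925, 9630 and 8728 with ATRA. None of these genes overlapped between groups. CD38, an NAD-consuming surface enzyme, rose 9.45-fold (log2 fold change 3.24, SE 0.09, limma adjusted p 2.6e-15), and the phospholipase family gene PLAAT4 rose from 1.11 ± 1.28 to 34.3 ± 7.91. TNFAIP2, a gene induced by tumor necrosis factor, rose less (log2 fold change 1.5). Downregulated members were CEBPE, a transcription factor of late granulocyte maturation (315 ± 29.3 to 96.5 ± 2.74 counts), and the retinol dehydrogenases DHRS9 (87.4 ± 10.4 to 28.4 ± 5.04) and RDH10 (533 ± 19.3 to 285 ± 97.7). RAI1 was not called (124 ± 13.4 and 112 ± 6.30).

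The promoters of CYP26A1 and RARB are shown because both genes hold a pair of retinoic acid receptor half-sites close to their start. A direct repeat with 5 bases between its half-sites was searched, where a half-site could be the consensus AGGTCA, the variant written AGTTCA, the variant that reads GGGTCA or, as the remaining choice, GGTTCA. It was sought on both strands of the RefSeq promoter windows, which run from 250 bases before to 50 after a start site. Capitals mark the repeat, and the stretch is written along the gene.
CYP26A1: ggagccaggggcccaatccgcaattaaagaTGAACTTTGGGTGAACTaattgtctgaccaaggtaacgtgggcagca
RARB: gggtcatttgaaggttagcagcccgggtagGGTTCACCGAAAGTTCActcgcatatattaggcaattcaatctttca
The CYP26A1 stretch is chr10:93073773-93073849 on the plus strand of GRCh38.p14, with the repeat on the opposite strand and its first base 90 bases before the start site. The RARB stretch is chr3:25428180-25428256, also on the plus strand, with the repeat 53 bases before the start. Such a repeat stood in 31 of 35116 windows (0.0883%), in 9 of 8683 tested genes with a window (0.104%), in 4 of 1004 upregulated genes (0.398%) and in 3 of 126 upregulated over 8-fold (2.38%). A match describes letters and is no evidence of binding.

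RARA, RARG and RXRA, which encode the main receptors of myeloid cells and their partner, were not called. RARA had 27.1 ± 8.88 counts untreated and 41.2 ± 7.69 with ATRA, RARG 17.0 ± 2.51 and 24.4 ± 7.93, and RXRA 956 ± 132 and 725 ± 119 (limma adjusted p 0.0528 for RXRA). Of 13 tested receptors and cofactors, limma called 2 upregulated and 0 downregulated (0 to 1 downregulated over the alternatives, and 4 lower at an unadjusted p under 0.05). NRIP1, a ligand-dependent corepressor, had 7.78, 2.44 and 3.14 counts untreated and 95, 64.7 and 90.3 with ATRA, an 18.7-fold rise. NRIP1 stayed under 10 counts in each library without ATRA and passed the filter through libraries with ATRA, which favours a rise. NCOA3, a coactivator, went from 30.2 ± 7.58 to 142 ± 25.3 (4.70-fold). The corepressor gene NCOR1 (log2 fold change 0.32), the deacetylase HDAC3 (0.12) and the coactivator NCOA2 (0.01) were not called.

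**Figure D2:**
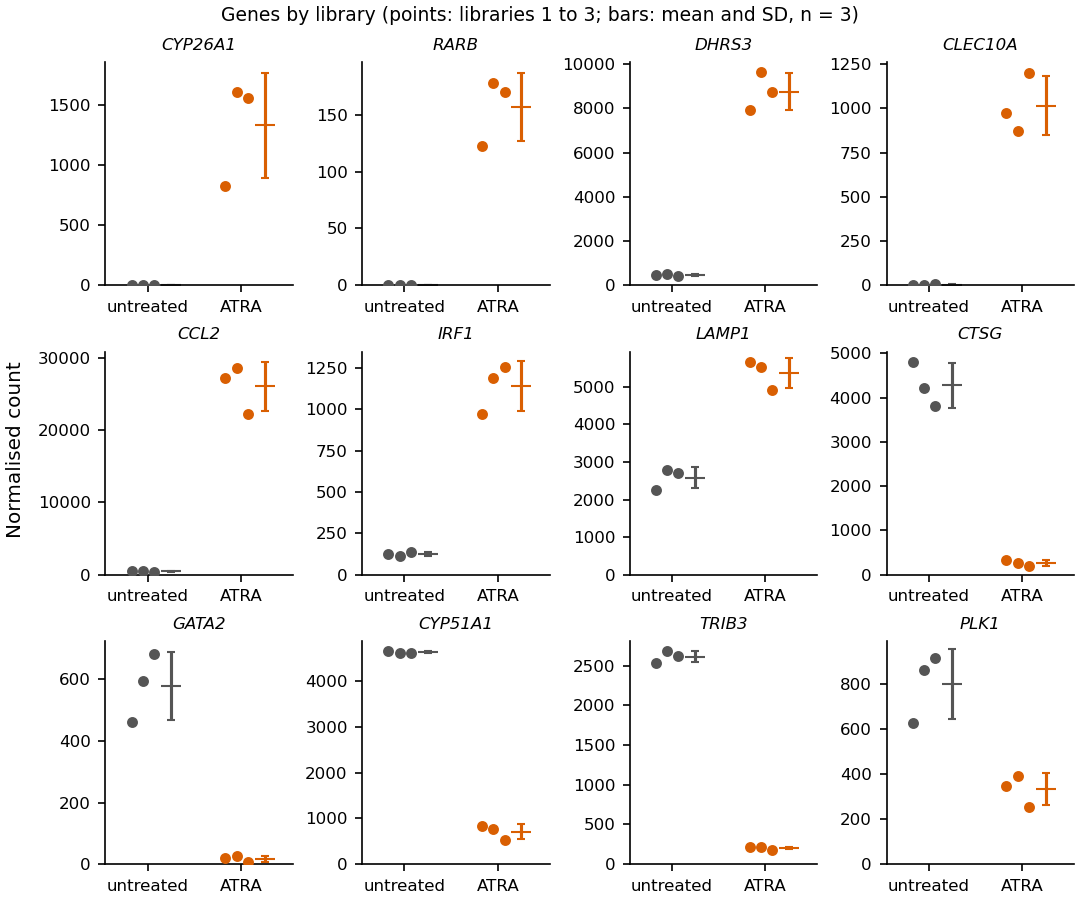
Normalised read-counts of 12 genes in the 3 untreated (grey) and 3 ATRA libraries (orange), 1 point per library, with the mean and SD beside them (n = 3) and a vertical axis from 0 in each panel. The 12 genes were picked from the called genes, 7 higher with ATRA and 5 lower. The groups do not overlap in any panel, which also holds for 50.7% of all genes tested.

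Surface markers of conventional dendritic cells were prominent among the rises. These are antigen-presenting cells that share precursors with monocytes. Of 23 such markers, 14 passed the filter on low counts, 6 stayed below it and 3 were listed at 0. Of the 14 tested, 11 were upregulated and 2 downregulated, with a median log2 fold change of 2.43. CLEC10A, CD1D and CD1C stayed under 10 counts in each library without ATRA and passed the filter through libraries with ATRA, so these counts favour rises. The summed level of the list was lower with ATRA, with 14907 to 15303 counts in the untreated libraries and 12131 to 13099 with ATRA. CLEC10A, a galactose-binding lectin, had 2.33, 1.62 and 4.39 counts untreated and 975, 872 and 1201 with ATRA, a 365-fold rise (limma adjusted p 2.91e-11). CD1D, which presents lipids to natural killer T cells, had 0 counts in all untreated libraries and 168, 195 and 205 with ATRA, at least 77.6-fold more. Its relatives CD1C (2.61 ± 2.14 to 119 ± 50.2) and CD1A (8.55 ± 3.11 to 138 ± 48.0) rose as well. ZBTB46, a transcription factor of conventional dendritic cells, went from 0 to 16.1, 16.4 and 12.5 counts. The downregulated members were BATF3 (log2 fold change -1.71), a factor of cross-presenting dendritic cells, and the cytokine receptor gene FLT3 (-0.77), both named after their values were seen. The BATF3 call was lost without any of the libraries but ATRA replicate 3, with a pseudocount of 0.1, with no filter and on transcript rows. Its adjusted p ranged from 0.00423 to 0.0402 over the alternatives (limma, DESeq2 or edgeR). In bulk RNA, a change in the share of cells of a type and a change in the RNA per cell cannot be told apart.

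Markers of monocytes and macrophages moved both ways. Of 25 tested, 9 were upregulated and 3 downregulated. CCR2, the receptor that calls monocytes to inflamed tissue, had 495, 525 and 467 counts untreated and 3467, 3532 and 3573 with ATRA, a 7.11-fold rise with no overlap. CX3CR1, the fractalkine receptor of patrolling monocytes, rose from 44.4 ± 14.7 to 190 ± 35.9, and the inhibitory Fc receptor gene FCGR2B from 59.9 ± 6.55 to 266 ± 57.9. In contrast, FCGR1A, the high-affinity Fc receptor gene, fell from 1619 ± 173 to 409 ± 62.9 and the scavenger receptor gene MARCO 12.2 times. FCGR1A and FCGR2B have near-identical relatives, and reads may be divided between them. CD33 (372 ± 80.5 and 549 ± 46.0) and CSF1R (566 ± 151 and 924 ± 45.7) were not called (limma adjusted p 0.0138 and 0.0107). Their ranges over the alternatives (limma, DESeq2 or edgeR) were 0.004 to 0.0886 and 0.00339 to 0.0871.

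Adhesion molecules and signalling receptors of myeloid cells also changed. Of 24 tested leukocyte integrins and adhesion genes, 8 were upregulated and 3 downregulated. ITGAX and ITGAM encode the alpha chains of CD11c and CD11b, classical markers of myeloid maturation. ITGAX had 275, 240 and 238 counts untreated and 967, 1153 and 1176 with ATRA, and ITGAM had 10.1, 13 and 5.65 against 47.5, 61.0 and 63.5. Both were separate between groups. ITGB7, an integrin chain of gut homing, rose 12.9-fold, JAML, a junctional adhesion molecule, 10.2-fold, and ITGA6, a laminin receptor chain, at least 19.5-fold from 0 counts. ITGA6 stayed under 10 counts in each library without ATRA and passed the filter through libraries with ATRA, which favours a rise. Of 31 tested Fc, LILR, TREM and related receptors, 12 were upregulated and 4 downregulated. CD300LB, an activating receptor of myeloid cells, rose from 587 ± 53.1 to 8481 ± 895 counts, CD180, a Toll-like receptor relative, from 790 ± 80.0 to 5109 ± 17.6, and FCER1G, the common signalling chain of Fc receptors, from 139 ± 13.3 to 501 ± 32.8. In the C-type lectins and Siglecs the balance was the reverse, with 3 upregulated and 5 downregulated of 18 (3 downregulated without untreated replicate 2). CLEC12A, a marker of leukemic blasts, had 94.9, 75.5 and 56.5 counts untreated and 0, 0 and 0.836 with ATRA, at least 28.1-fold less, and CLEC5A and CLEC12B were at 0 in all ATRA libraries.

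Granule proteins, which neutrophil and monocyte precursors store, were mostly lower. Of 20 tested, 11 were downregulated and 3 upregulated, with a median log2 fold change of -1.16. CTSG (chr14), which encodes the serine protease cathepsin G, had 4808, 4223 and 3801 counts untreated and 329, 267 and 200 with ATRA. This is 16.1 times lower with no overlap (log2 fold change -4.03, SE 0.15, limma adjusted p 7.22e-14). PRG2, the major basic protein of eosinophils, fell 28.4 times. LYZ, the antibacterial enzyme lysozyme, fell 6.10 times and MPO, myeloperoxidase of primary granules, 1.88 times, both named after their values were seen. SRGN, the proteoglycan that packs granule proteins was not called (160381 ± 22090 and 183049 ± 41477). The upregulated members belong to later granules or the surface. MMP9, a gelatinase of late granules, had 16.3, 15.4 and 11.3 counts untreated and 550, 562 and 699 with ATRA. CEACAM1 and CEACAM8, adhesion molecules of maturing granulocytes, were at 0 without ATRA and reached 37.8 ± 5.00 and 14.4 ± 3.18 counts. Both thus passed the filter through libraries with ATRA, which favours rises among the granule genes. Reads may be shared within the CEACAM family.

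The calcium-binding S100 proteins had 4 downregulated and 0 upregulated of 9 tested genes by limma, and 3 to 4 downregulated over all alternatives. S100A8 and S100A9, which form calprotectin of inflammatory myeloid cells, fell from 33.8 ± 5.03 to 3.92 ± 2.62 and from 398 ± 59.8 to 45.8 ± 3.98 counts. S100P fell 12.8 times. At an unadjusted p under 0.05, 1 member was higher and 4 were lower.

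**Figure D3:**
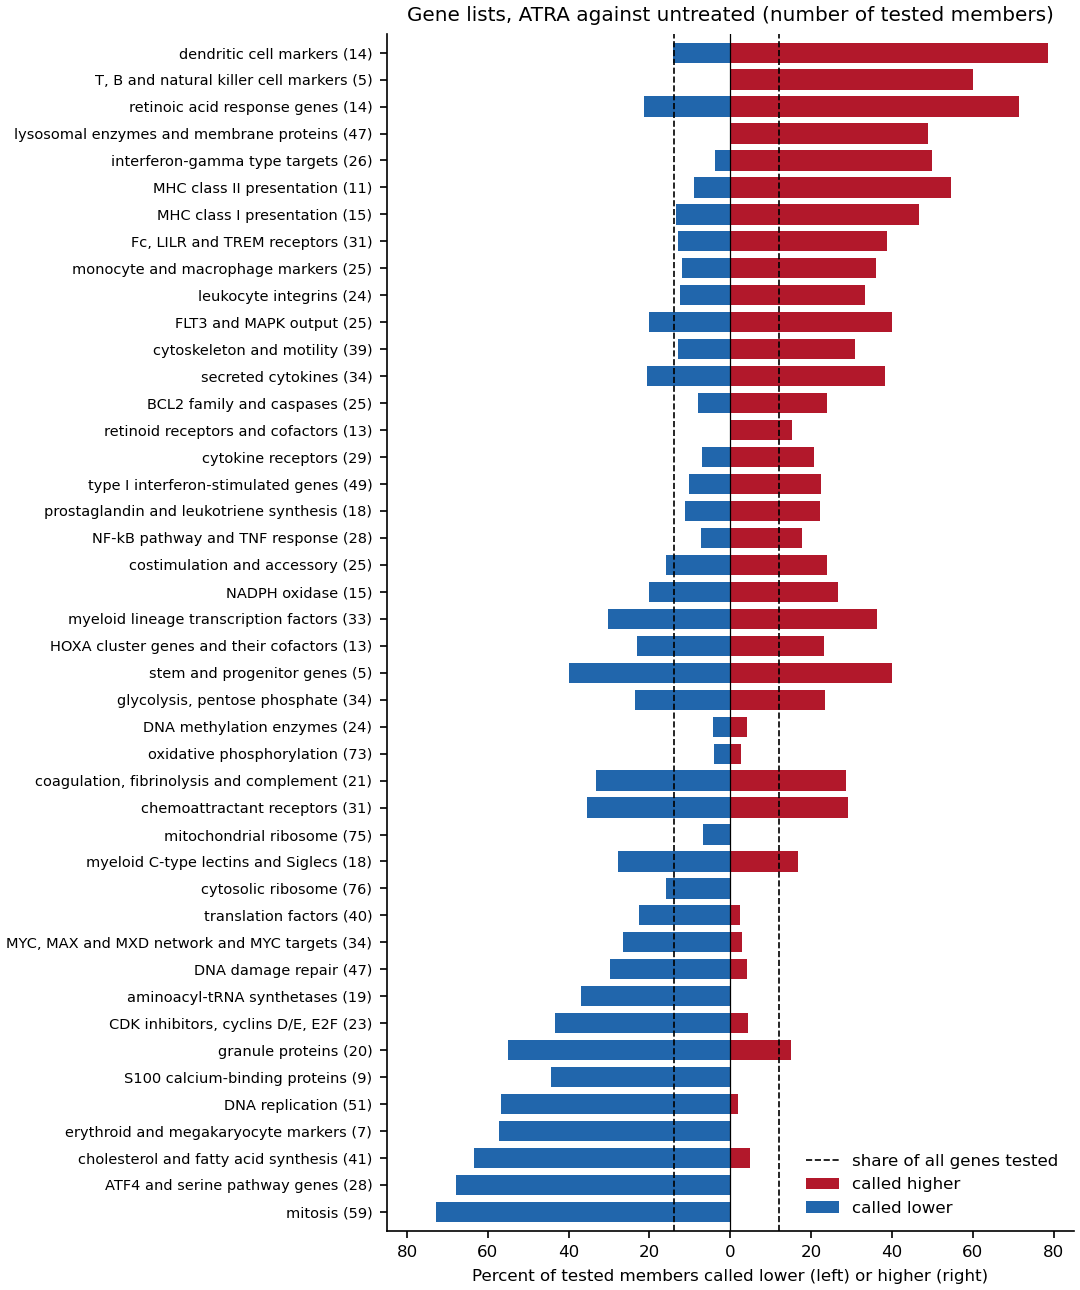
Share of tested members called higher (red, right) or lower (blue, left) with ATRA in each gene list, ordered by the difference of both shares, with the number of tested members in parentheses. Dashed lines mark the shares over all genes tested, 14% lower and 12.1% higher, and mitosis (59 members) has the longest bar on the left.

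Transcription factors of the myeloid lineage changed in 22 of 33 tested genes, 12 higher and 10 lower. ZBTB16, the progenitor repressor PLZF, had 173, 181 and 178 counts untreated and 1.79, 0.744 and 0 with ATRA, at least 66.1-fold less. GATA2, a factor of stem, mast cell and basophil progenitors, had 462, 594 and 682 counts against 19.7, 26.0 and 7.52. The untreated libraries were far higher for both. On the other side, immediate early genes rose: EGR3 from 110 ± 15.1 to 2355 ± 482 and FOSB from 22.4 ± 8.26 to 447 ± 124 counts. IRF4, a factor of dendritic cell and alternative macrophage programs, rose 14.1-fold. HOXA9 and its cofactor MEIS1 are the core program of MLL-rearranged leukemia and moved apart. HOXA9 had 1538, 1550 and 1497 counts untreated and 1061, 1057 and 872 with ATRA (log2 fold change -0.62, limma adjusted p 0.000526). MEIS1 had 279, 255 and 230 counts against 661, 598 and 577 (1.26, limma adjusted p 3.42e-07). Among stem and progenitor genes, KIT, the stem cell factor receptor, rose from 29.5 ± 6.81 to 740 ± 186 counts and SOX4 rose 4.44-fold, while IL2RA and IGFBP7 fell.

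Genes of the MAPK pathway output, which read the activity of kinases such as FLT3, showed 10 upregulated and 5 downregulated of 25. The downregulated count was 3 without untreated replicate 2, untreated replicate 3, ATRA replicate 1 or ATRA replicate 3. The upregulated members included phosphatases that switch off MAP kinases. DUSP4 had 1.56, 0.812 and 1.88 counts untreated and 135, 138 and 132 with ATRA, at least 55.4-fold more. It stayed under 10 counts in each library without ATRA and passed the filter through libraries with ATRA, which favours a rise. DUSP6 rose from 308 ± 36.5 to 1752 ± 319 and DUSP1 from 215 ± 37.7 to 1284 ± 309. KLF10, a TGF-beta inducible repressor, and MAFF, a small MAF factor, rose 4.47-fold and 5.05-fold.

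Secreted factors showed both strong rises and falls, with 13 upregulated and 7 downregulated of 34. The downregulated count was 4 without untreated replicate 2 or without ATRA replicate 1. CCL2 (chr17), the ligand of CCR2 that attracts monocytes, had 541, 447 and 344 counts untreated and 27313, 28630 and 22280 with ATRA, a 58.7-fold rise (log2 fold change 5.89, SE 0.14, limma adjusted p 1.52e-16). PTGES, listed here for its product prostaglandin E2, had 0.778, 2.44 and 1.25 counts against 399, 428 and 372. IGF1, an insulin-like growth factor, had 0, 3.25 and 0 counts against 133, 161 and 127. All 3 genes were separate between groups. IGF1 stayed under 10 counts in each library without ATRA and passed the filter through libraries with ATRA, which favours a rise. CCL24, a chemokine of eosinophils, rose 8.01-fold. IL1RN, the interleukin 1 receptor antagonist, fell from 41.9 ± 6.07 to 4.18 ± 1.20 counts, and this call was lost with a pseudocount of 0.1 (limma adjusted p 0.0158). Its adjusted p ranged from 5.36e-10 to 0.0158 over the alternatives (limma, DESeq2 or edgeR).

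Receptors for chemoattractants split in the same manner, with 9 upregulated and 11 downregulated of 31. CCR3, a chemokine receptor of eosinophils, rose at least 32.9-fold. It stayed under 10 counts in each library without ATRA and passed the filter through libraries with ATRA, which favours a rise. HCAR2, the niacin receptor, went from 10.4 ± 5.68 to 265 ± 57.8, and its near-identical neighbour HCAR3 from 14.4 ± 3.15 to 331 ± 75.7, so that reads of the pair may not be separable. The largest fall was that of C5AR2, a receptor for the complement peptide C5a, with 170, 164 and 206 counts untreated and 2.69, 0 and 0.836 with ATRA. The median log2 fold change of this list was -0.02 and changed sign with TMM scaling by limma.

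Of 21 tested coagulation, fibrinolysis and complement genes, 6 were upregulated and 7 downregulated. THBD, the thrombin cofactor thrombomodulin, had 271, 350 and 364 counts untreated and 11008, 14268 and 11854 with ATRA. THBS1, the matrix protein thrombospondin 1, rose 35.7-fold. CFP, which stabilises the alternative complement pathway, rose from 12.9 ± 6.38 to 147 ± 19.0. In prostaglandin and leukotriene synthesis, 4 of 18 tested genes were upregulated and 2 downregulated. ALOX12, a 12-lipoxygenase, rose 9.07-fold and PTGS2, the inducible cyclooxygenase, 2.47-fold, while LTC4S, leukotriene C4 synthase, fell 4.84 times.

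Interferon-gamma type genes and type I interferon-stimulated genes gave unlike counts. Of 26 tested members of the interferon-gamma list, 13 were upregulated and 1 downregulated, with a median log2 fold change of 0.78. IRF1 (chr5), the transcription factor that drives this program, had 124, 114 and 139 counts untreated and 970, 1190 and 1257 with ATRA, a 9.05-fold rise (limma adjusted p 1.12e-12). GBP4, an interferon-induced GTPase, had 24.1, 30.9 and 28.2 counts against 1199, 1499 and 1286, and CIITA, the master regulator of MHC class II, 7.78, 13 and 16.3 against 159, 142 and 170. All 3 were separate between groups. The secreted protein gene SECTM1 rose at least 8.02-fold, while the chemokine gene CXCL11 fell at least 5.72-fold. Of 49 tested type I interferon-stimulated genes, 11 were upregulated and 5 downregulated, with a median log2 fold change of 0.12 beside -0.04 for all genes. LGALS3BP, a secreted glycoprotein, rose from 4.86 ± 2.99 to 51.9 ± 21.2 and the antiviral membrane protein gene IFITM3 from 59.8 ± 11.3 to 190 ± 14.9 counts. Among the downregulated members, IFI44 had 116, 172 and 87.2 counts untreated and 20.6, 23.1 and 15.9 with ATRA, HERC5, an interferon-induced ligase, fell 5.89 times, and OASL, an antiviral relative of the oligoadenylate synthetases, fell 12.2 times.

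The promoters of GBP4, which rose, and of IFI44 and HERC5, which fell, are shown because all of them hold the interferon element, a GAAA repeat spaced by 2 bases, in capitals here and read on the opposite strand (both strands were searched).
GBP4: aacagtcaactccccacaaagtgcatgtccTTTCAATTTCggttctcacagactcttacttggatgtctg
IFI44: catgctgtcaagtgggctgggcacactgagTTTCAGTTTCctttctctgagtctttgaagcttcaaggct
HERC5: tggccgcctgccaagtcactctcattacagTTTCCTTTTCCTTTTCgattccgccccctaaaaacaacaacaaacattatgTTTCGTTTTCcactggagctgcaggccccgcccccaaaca
They lie at chr1:89198907-89198976 on the minus strand, chr1:78649741-78649810 on the plus strand and chr4:88456964-88457084 on the plus strand of GRCh38.p14. HERC5 holds 3 matches, of which 2 overlap. The element stood in 28 of 39 type I interferon-stimulated genes with a window (71.8%), in 7 of 18 of the interferon-gamma list (38.9%), in 4.04% of all tested genes and in 3.57% of all windows. It stood in 59 of 1004 upregulated genes (5.88%) and in 33 of 1180 downregulated genes (2.80%).

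Of 11 tested genes of MHC class II presentation, 6 were upregulated and 1 downregulated, with a median log2 fold change of 1.80. CD74, the invariant chain that escorts class II molecules, had 81.7, 94.2 and 72.1 counts untreated and 452, 346 and 360 with ATRA. HLA-DRB1 and HLA-DRB5, the class II beta chains, rose from 2.79 ± 1.73 to 44.9 ± 12.7 and from 2.04 ± 1.54 to 36.7 ± 6.95, although reads between these near-identical genes are uncertain. Both stayed under 10 counts in each library without ATRA and passed the filter through libraries with ATRA, so the class II counts favour rises. MARCHF1, which removes class II molecules from the surface, and RFX5, a factor of class II promoters, rose 3.77-fold and 2.05-fold. In class I presentation 7 of 15 genes were upregulated and 2 downregulated, and the summed level of the list was 30452 to 34660 counts in the untreated libraries and 27316 to 31003 with ATRA. HLA-B had 1628, 1749 and 1727 counts against 4137, 4574 and 5676, the immunoproteasome subunit gene PSMB10 rose 2.61-fold, and TAPBPL, which edits peptides on class I, 3.54-fold.

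Lysosomal genes shifted in 1 direction, with 23 upregulated and 0 downregulated of 47 by limma and 14 to 25 upregulated and 0 downregulated in each alternative analysis. At an unadjusted p under 0.05, 30 were higher and 0 lower. The median log2 fold change was 0.59. CTSD, the protease cathepsin D, had 21.0, 31.7 and 37.6 counts untreated and 197, 593 and 585 with ATRA, with the lowest ATRA value again in library 1. SGSH, a heparan sulfate sulfatase, rose 8.64-fold, PSAP, the precursor of the saposins that assist lipid breakdown, 3.95-fold, and CTSB, cathepsin B, 3.73-fold. TFEB, the transcription factor that controls lysosome formation, had 19.4, 26.0 and 30.7 counts against 86.9, 84.1 and 120. The membrane protein gene LAMP1 (2.08-fold) and ATP6V0D1, a subunit gene of the proton pump (2.13-fold), both named after their values were seen, are shown with their promoters because they hold the palindrome of TCAC followed at once by GTGA, the core of the element that TFEB and its relatives bind, in capitals.
LAMP1: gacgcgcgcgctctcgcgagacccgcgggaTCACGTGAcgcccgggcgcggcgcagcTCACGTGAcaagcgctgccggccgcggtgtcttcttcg
ATP6V0D1: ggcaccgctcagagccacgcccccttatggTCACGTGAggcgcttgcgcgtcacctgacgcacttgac
The stretches are chr13:113297180-113297274 on the plus strand and chr16:67481180-67481247 on the minus strand of GRCh38.p14. The palindrome stood in 5 of 31 lysosomal genes with a window (16.1%), in 2.36% of all tested genes and in 0.980% of all windows. It stood in 16 of 1004 upregulated genes (1.59%) and in 17 of 1180 downregulated genes (1.44%), both below the share of all tested genes.

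**Figure D4:**
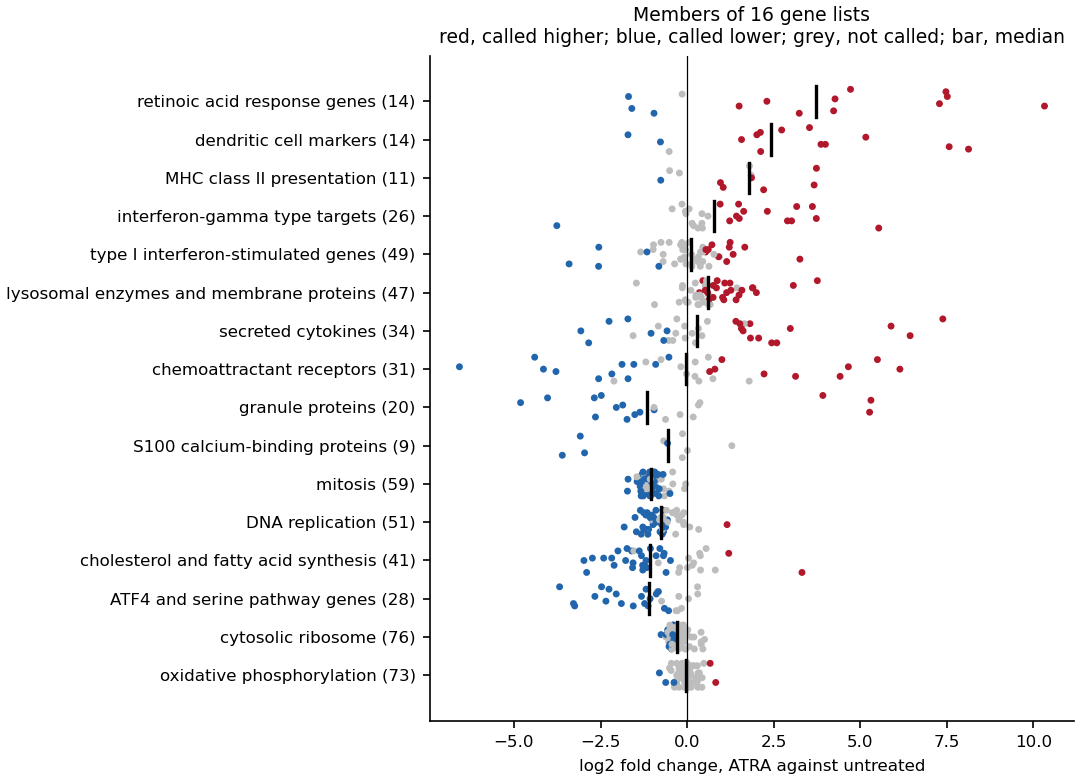
Log2 fold change of ATRA against untreated for each tested member of 16 gene lists (red, called higher; blue, called lower; grey, not called), with a black bar at the list median. The median lies at 3.73 for retinoic acid response genes, at 0.59 for lysosomal genes and at -1.04 for mitosis, where all 59 members lie below 0.

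Synthesis of sterols and fatty acids was lower at most steps. Of 41 tested genes, 26 were downregulated and 2 upregulated, with a median log2 fold change of -1.06. CYP51A1, the lanosterol demethylase, had 4659, 4615 and 4620 counts untreated and 843, 763 and 522 with ATRA (6.53 times lower, limma adjusted p 1.96e-11). HMGCS1, the enzyme that forms the first committed intermediate, had 402, 513 and 699 counts against 75.3, 69.2 and 54.3. MSMO1, a sterol oxidase, fell 5.40 times and FADS1, a fatty acid desaturase, 7.37 times. The groups did not overlap for any of these 4 genes. ABCA1, which exports cholesterol and is listed for its link to the pathway rather than for synthesis, was 1 of the 2 upregulated members, with 253, 255 and 231 counts untreated and 1834, 2860 and 2832 with ATRA. The genes of the controlling factors, SREBF1 (log2 fold change 0.04) and SREBF2 (0.01), named after their values were seen, were not called. A sterol element (TCAC and CCAC with 1 base between, searched on both strands) stood in 1 of 33 members with a window and in 1.43% of all tested genes.

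Genes of the amino acid response, which the transcription factor ATF4 controls, also fell. Of 28 tested ATF4 and serine pathway genes, 19 were downregulated and 0 upregulated by limma, and 15 to 20 downregulated and 0 upregulated in each alternative. At an unadjusted p under 0.05, 22 were lower and 1 was higher. TRIB3, a pseudokinase induced by amino acid shortage, had 2538, 2680 and 2616 counts untreated and 213, 212 and 184 with ATRA, 12.9 times lower (log2 fold change -3.68, SE 0.12, limma adjusted p 1.02e-14). PSAT1, an aminotransferase of serine synthesis, had 891, 788 and 679 counts against 211, 130 and 100. CHAC1, which degrades glutathione, and STC2, a secreted stress glycoprotein, fell 10.6 and 10.3 times, and VLDLR, a lipoprotein receptor, 6.46 times. ATF4 itself was not called (729 ± 53.6 and 898 ± 58.2), and was named after its values were seen. Of 19 tested cytosolic aminoacyl-tRNA synthetases, which charge tRNAs with amino acids, 7 were downregulated and 0 upregulated by limma (3 to 8 and 0 over the alternatives, 9 and 0 at an unadjusted p under 0.05), among them GARS1 (2.18 times lower) and AARS1 (2.17 times lower). EIF4EBP1, a repressor of cap-dependent translation, fell from 3128 ± 346 to 1099 ± 130 counts.

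Sugar metabolism had no common direction, with 8 upregulated and 8 downregulated of 34 tested genes. SLC2A5 (chr1), the fructose transporter, had 1419, 1577 and 1513 counts untreated and 58517, 67649 and 70552 with ATRA, a 43.6-fold rise (log2 fold change 5.44, SE 0.10, limma adjusted p 3.25e-18). HK3, the hexokinase of myeloid cells, rose 4.29-fold, and RPIA, an isomerase of the pentose phosphate pathway, 2.79-fold. Of 15 tested genes of the phagocyte NADPH oxidase and oxidative burst, 4 were upregulated and 3 downregulated. NCF1, a cytosolic subunit of the phagocyte NADPH oxidase, rose from 1332 ± 100 to 12357 ± 1619 counts, although pseudogenes resemble it and may share its reads, and CYBA, a membrane subunit, 1.94-fold. Catalase (CAT) fell from 7877 ± 764 to 2091 ± 174 and superoxide dismutase 1 (SOD1) from 938 ± 139 to 448 ± 20.5. CA2, a carbonic anhydrase, had 12545, 13918 and 18390 counts untreated and 758, 691 and 555 with ATRA.

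Genes of cell division fell. Of 59 tested mitosis genes, 43 were downregulated and 0 upregulated by limma, and 29 to 46 downregulated and 0 upregulated in each alternative. At an unadjusted p under 0.05, 50 were lower and 0 higher. The median log2 fold change was -1.04 and all 59 members were below 0. The members with the largest falls were BUB1, a checkpoint kinase (26.1 ± 11.2 to 7.16 ± 2.85 counts), and KIF20B, a kinesin (30.4 ± 4.56 to 8.69 ± 1.88). The BUB1 call was lost without untreated replicate 2 or without ATRA replicate 3. The KIF20B call was lost without untreated replicate 1, untreated replicate 3 or ATRA replicate 3 and on transcript rows. Their adjusted p-values ranged from 0.000285 to 0.0166 and from 0.000204 to 0.0407 over the alternatives (limma, DESeq2 or edgeR). BIRC5, the survivin gene, went from 47.4 ± 9.43 to 17.0 ± 4.95, CENPM, a centromere protein gene, from 34.0 ± 2.51 to 13.2 ± 4.44, and PTTG1, the securin gene that guards chromosome separation, from 198 ± 16.2 to 80.8 ± 25.1. The better covered PLK1 (802 ± 154 to 332 ± 71.0), a mitotic kinase, MKI67 (301 ± 79.3 to 116 ± 4.66), the Ki-67 proliferation marker, and CCNB2 (226 ± 31.9 to 122 ± 31.4), a B-type cyclin, were named after their values were seen. Their promoters hold the cell cycle homology region TTTGAA, in capitals, at which repressor complexes hold mitotic genes silent outside division.
PLK1: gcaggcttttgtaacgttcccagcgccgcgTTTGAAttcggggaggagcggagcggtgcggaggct
CCNB2: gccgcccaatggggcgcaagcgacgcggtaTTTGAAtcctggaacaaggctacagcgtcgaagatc
MKI67: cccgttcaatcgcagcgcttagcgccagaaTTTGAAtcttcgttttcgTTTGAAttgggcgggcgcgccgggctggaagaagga
They lie at chr16:23678830-23678895 and chr15:59105087-59105152 on the plus strand and at chr10:128126417-128126500 on the minus strand of GRCh38.p14, and in each a match begins 29 bases before the start site. The 6 letters, searched on both strands, stood in 34 of 50 mitosis genes with a window (68%), in 13.6% of all tested genes and in 15.2% of all windows. They stood in 16.95% of downregulated and in 15.9% of upregulated genes.

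Replication genes fell as well, with 29 downregulated and 1 upregulated of 51 and a median log2 fold change of -0.76. CDT1, which licenses origins, had 981, 1086 and 1101 counts untreated and 358, 321 and 232 with ATRA. CDC6, its partner in licensing, fell 2.73 times and GINS2, a subunit of the replicative helicase, 2.37 times. The E2F site (TTTCCC followed at once by GC), searched on both strands, stood in 10 of 44 replication genes with a window (22.7%) and in 3.36% of all tested genes. It stood in 30 of 1004 upregulated genes (2.99%) and in 42 of 1180 downregulated genes (3.56%). Among CDK inhibitors, cyclins and E2F factors 1 of 23 was upregulated and 10 downregulated. The exception was BTG2, an antiproliferative factor, with 2576, 2442 and 2285 counts against 15552, 17986 and 12605. The cyclin gene CCND2 had 1557, 1517 and 1520 counts against 607, 598 and 545, and E2F2 fell 2.78 times. MYC had 91.0, 102 and 90.3 counts against 15.2, 18.6 and 25.1. Of 34 tested genes of the MYC network, MYC among them, 9 were downregulated and 1 upregulated.

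Of 76 tested cytosolic ribosomal protein genes, 12 were downregulated (15.8%, near the 14% of all genes tested) and 0 upregulated by limma. The median log2 fold change was -0.29, and 65 of the 76 values were negative. At an unadjusted p under 0.05, 42 were lower and 1 was higher. The upregulated count ranged from 0 to 1 and the downregulated count from 0 to 29 over the alternatives and was 5 without untreated replicate 2, ATRA replicate 2 or ATRA replicate 3 and 6 without untreated replicate 1. RPL12 fell by 0.75 on the log2 scale, from 19910 ± 1688 to 11795 ± 447 counts, and processed pseudogenes may take reads of such genes. Of 75 mitochondrial ribosomal protein genes, 5 were downregulated and 0 upregulated by limma (1 to 16 and 0 over the alternatives, 27 and 1 at an unadjusted p under 0.05). The downregulated share was 6.67%, below the 14% of all genes tested, and the median was -0.25. Leaving out untreated replicate 1, ATRA replicate 2 or ATRA replicate 3 gave 3 downregulated, untreated replicate 2 gave 2 and ATRA replicate 1 gave 8. Of 73 nuclear-encoded oxidative phosphorylation genes, 2 were upregulated and 3 downregulated, fewer in both directions than the shares over all genes, with a median of -0.04. Of 40 translation factors, 9 were downregulated and 1 upregulated, with 3 downregulated without untreated replicate 1 and 4 without untreated replicate 2, ATRA replicate 2 or ATRA replicate 3.

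The remaining gene lists are given by their counts. Of 47 DNA repair genes, 14 were downregulated and 2 upregulated (8 downregulated without untreated replicate 2 and 9 without ATRA replicate 3). Of 39 genes of the cytoskeleton and motility, 12 were upregulated and 5 downregulated, with 1 to 15 upregulated over the alternatives. Growth factor and cytokine receptors had 6 upregulated and 2 downregulated of 29, and genes of costimulation and tryptophan or arginine metabolism 6 and 4 of 25. Enzymes of DNA methylation and demethylation had 1 upregulated and 1 downregulated of 24, and HOXA genes and their cofactors 3 and 3 of 13. Of 7 erythroid and megakaryocyte markers, 4 were downregulated and 0 upregulated by limma (5 and 0 at an unadjusted p under 0.05, 1 to 5 and 0 over the alternatives). Without untreated replicate 1 or 3, 2 of them were downregulated, and without untreated replicate 2, ATRA replicate 2 or ATRA replicate 3 this was 1. Of 5 markers of T, B and natural killer cells, 3 were upregulated and 0 downregulated by limma (4 and 1 at an unadjusted p under 0.05, 2 to 4 and 0 to 1 over the alternatives).

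Of 25 tested BCL2 family and caspase genes, 6 were upregulated and 2 downregulated, and 21 of the 25 log2 fold changes were positive (median 0.31). BCL2, the antiapoptotic protein targeted by venetoclax, had 955, 993 and 983 counts untreated and 162, 127 and 115 with ATRA, 7.27 times lower. Its relatives MCL1 (508 ± 37.4 to 1469 ± 102) and BCL2A1 (64.5 ± 3.41 to 213 ± 47.5), both antiapoptotic, and PMAIP1, the proapoptotic NOXA gene (611 ± 225 to 1495 ± 175), rose. In the inflammatory NF-kB list, with 5 upregulated and 2 downregulated of 28, the inhibitor gene NFKBIA (4.58-fold) and BCL3 (5.64-fold) rose most.

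The ATRA effect without DAC was then set against the effect with DAC. The labels give 96 h for untreated cells and 72 h for all other libraries. Labelled time thus enters only the effect without DAC and cannot be told apart from a difference of both effects. The effect with DAC uses 6 other libraries. Depth was lower in these, with 4671214 to 6954604 reads for DAC and 5607158 to 7162775 for DAC + ATRA, and 962 genes were upregulated and 1036 downregulated by ATRA on DAC. The difference between both effects was called in 170 genes (1.6% of those tested), 77 more positive with DAC and 93 more negative. For the retinoic acid response genes it was called in 2 of 14. TGM2 rose by 7.51 on the log2 scale without DAC and by 8.39 with it, and DHRS3 by 4.27 and 5.95. The type I interferon-stimulated genes had the highest count of called differences of the gene lists, 13 of 49, of which 12 were more positive with DAC. With DAC, 26 of the 49 were upregulated by ATRA and 1 was downregulated. IFI44 had 12.6 counts with DAC and 35.4 with DAC + ATRA (log2 fold change 1.52), the opposite of its fall from 125 to 19.9 without DAC. Several of the strongest inductions were smaller on DAC. CCL2 rose by 5.89 on the log2 scale without and 3.52 with DAC, and EGR3 by 4.40 and 1.18. DUSP1 and KLF10, which rose without DAC, had values of -0.46 and -0.67 with it. For mitosis genes, 34 of 59 were downregulated on DAC (median -0.78). For sterol and fatty acid synthesis, 23 of 41 were downregulated on DAC (median -0.91), and for lysosomal genes 16 of 47 were upregulated (median 0.54).

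**Figure D5:**
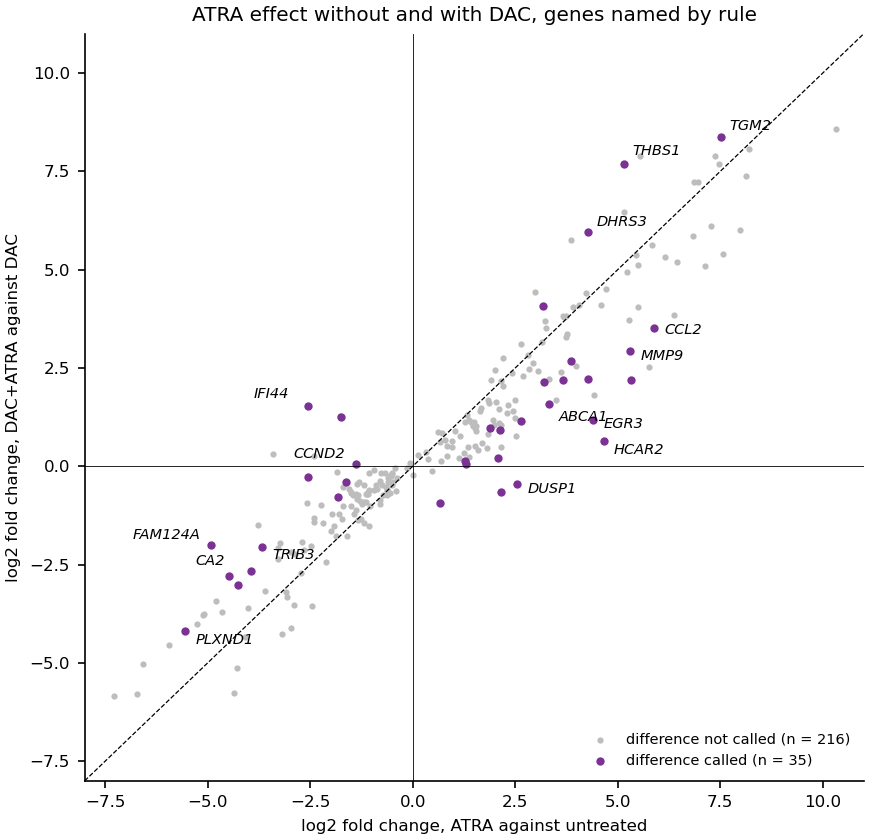
Log2 fold change of ATRA against untreated (horizontal) and of DAC + ATRA against DAC (vertical) for the 251 genes named by rule, with the diagonal of equal effects dashed. The difference was called in 35 genes (purple), among them CCL2 and MMP9 below the diagonal and IFI44 above it.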

How the data were processed

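RNA of MOLM-13 cells was measured by ribosome-depleted, strand-specific RNA-seq in 12 libraries, with 3 for each of the 4 treatments. The deposited values are a signal made by the authors from read-counts per transcript divided by a size factor of the library. The submitters' processing notes name FastQC, STAR, HTSeq, DESeq2 and hg38. Reads that match more than 1 transcript seem to be missing from the counts. All values (100%) came out as whole reads within 0.01 reads, which gave each library's depth. The table held 100502 rows, of which 88.9% matched a GENCODE 44 transcript, and 0 columns had no sample. Rows were summed to 46639 gene symbols.

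The filter kept protein-coding genes that reached 10 normalised counts in 3 or more of the 12 libraries. A gene could thus pass through the libraries of 1 treatment alone, which favours large changes among genes of low counts. They were tested on log2(normalised count + 1) with limma 3.58.1 (R 4.3.3) over all groups, with Benjamini-Hochberg adjustment and a threshold of 0.01. A fold is a ratio of group means, and a log2 fold change is on the log2(value + 1) scale, which understates changes of low genes. The difference of the ATRA effects was the interaction term. A lower bound takes 3 reads per library and covers counting error only. Alternatives were edgeR 4.0.16 and DESeq2 1.42.0, both run on whole reads, beside other scalings, filters, pseudocounts and thresholds, the replicate block, transcript rows and leaving out each library, 20 in all. The code was tested on simulated data.

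The comparison and the 45 gene lists were chosen with earlier results of these data known. Genes were named by rule: the 15 largest called rises and falls without overlap and with at least 100 normalised counts in the higher group, up to 5 called members per list, and the tested retinoid genes. The text names a part of them, and says where a gene was chosen after its values were seen. Promoters are RefSeq windows (GRCh38.p14) of 300 bases within 10000 bases of the gene. Some genes and the values of 1 list are not reported here. No set was tested for enrichment. Replicate numbers did not pair the libraries.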

Additional observations from a re-analysis of the deposited data

Results flagged for a closer look

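The effect of ATRA differed between cells without and with DAC for several genes named in the report, by the interaction term of limma. These differences cannot be told apart from labelled time, which was 96 h for untreated cells and 72 h for the rest. Each value is the log2 effect with DAC minus the log2 effect without it. The effect was more positive with DAC for ALOX12 (0.8841), CA2 (1.693), CCND2 (1.449), CDT1 (1.025), DHRS3 (1.682), HERC5 (2.265), IFI44 (4.078), IL2RA (3.011), TGM2 (0.8747), THBS1 (2.552) and TRIB3 (1.633). The effect was more negative with DAC for ABCA1 (-1.742), BTG2 (-1.495), CCL2 (-2.369), CD300LB (-1.172), CTSB (-0.9193), DUSP1 (-3.009), EGR3 (-3.213), FOSB (-2.056), HCAR2 (-4.014), HK3 (-1.86), ITGAX (-1.19), ITGB7 (-1.482), KLF10 (-2.818), MEIS1 (-1.133), MMP9 (-2.388) and NCF1 (-1.055).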

How the results depend on the processing

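Among the called genes named in the text, 0 changed direction under the alternatives, 20 in all. SREBF1 (-0.117 to 0.199), SREBF2 (-0.103 to 0.207) and NCOA2 (-0.0392 to 0.0534) were not called, and their log2 fold changes changed sign. The median log2 fold changes of chemoattractant receptors, DNA methylation enzymes and all genes tested, each near 0, changed sign with the scaling. A threshold of over 2-fold left 755 genes higher and 806 lower. At an adjusted p under 0.05 the ATRA effect differed with DAC in 58 of the genes named by rule, against 35. Leaving out 1 library gave 1037 to 1166 higher, 1093 to 1473 lower and 25 to 33 named differences. DESeq2 called 1457 and 1686, edgeR 1471 and 1474. With total-count scaling 40.93% of calls were higher, against 46.32%. Of the 149 called genes named in the text, 144 were called in each alternative that tested them, the 2-fold threshold aside, and 4 were lost when 1 library was left out. With the replicate block 1195 genes were higher and 1377 lower. Deviations of same-numbered libraries correlated at 0.11, -0.02 and 0.10, and 2 of 3 untreated libraries correlated best with their own number, so the block is given only here. CD33 and CSF1R were called under some alternatives. Depth limits what could be detected for genes of low counts.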

Other observations

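Among RNAs that do not code for protein, 189 of 2181 tested long non-coding RNAs were upregulated and 211 downregulated (limma, fit over all gene symbols, in which 1491 of 13448 were upregulated and 1700 downregulated). AC090617.5 (chr17:2043475-2044968, minus strand), near HIC1, rose by 6.12 on the log2 scale and AC254633.1 (chr1:12618900-12619980, minus strand), beside DHRS3, rose by 5.83. Of 67 tested microRNA genes, 11 were upregulated and 0 downregulated in the same limma fit, against 16 higher and 1 lower at an unadjusted p under 0.05. All 4 tested T-cell receptor constant region genes were downregulated, with TRDC at -7.03 and TRAC at -4.78.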
